A study of Homo sapiens with 12 samples.

Results

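The cytosolic ribosomal proteins build the large (RPL) and small (RPS) subunits of the ribosome, and their mRNAs were followed here through SMARCA4 knockdown and drug treatment of a lymphoma line. Members were the rows of the deposited count table whose gene symbol is RPL or RPS followed by a number, with at most a final A, L or X, together with RPLP0, RPLP1, RPLP2 and RPSA. This gave 79 of 13820 rows, 47 of the large and 32 of the small subunit. Of them, 78 passed the low-count filter that left 12602 genes for testing. RPL3L, a paralog of RPL3 known from striated muscle, did not pass, with 2 to 16 counts in each library.

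The cells were of Z-138, a line established from mantle cell lymphoma. They carried a control shRNA or one directed at SMARCA4, the motor subunit of SWI/SNF chromatin remodellers. All 12 libraries came from cells given doxycycline. Each shRNA was combined with DMSO or with a drug pair, ibrutinib at 3 µM and venetoclax at 3 µM, in 3 replicates per group. Ibrutinib blocks BTK, a kinase of B cell receptor signalling, and venetoclax blocks the survival protein BCL2. The labels name 1 line, give no shRNA sequence and do not state if the replicates are separate cultures. The p-values therefore reflect library-to-library spread, which may be technical, and an effect of the knockdown cannot be told apart from one of its construct. Hereafter, control and knockdown stand for the shRNAs, and drug stands for the combination.

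Ribosomal protein genes are transcribed at high rates in growing cells, and their products are assembled with ribosomal RNA in near equal amounts. Most of their mRNAs begin with a 5' terminal oligopyrimidine (TOP) tract, a C followed by a run of C and T. Translation of TOP mRNAs is switched by the kinase mTOR, with the RNA-binding protein LARP1 acting on the tract. Free ribosomal proteins are short-lived, and RPL5 and RPL11 can bind MDM2 when assembly is disturbed.

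SMARCA4 was measured at 555 to 599 CPM (counts divided by normalised library size) in control DMSO libraries and at 159 to 177 in those with the knockdown. With drug the values were 588 to 642 and 167 to 184, so the groups did not overlap. Total counts ran from 7279503 to 22528537, the deepest library being knockdown DMSO replicate 3. Of the lymphoma and B cell markers, MS4A1, CD79A, CD79B, PAX5, CCND1 and SOX11 were counted, with CCND1 at 3290 to 4890 CPM, and CD5 had no row. Of the T cell, NK cell, monocyte, fibroblast and epithelial markers, CD3G (1.31 to 18.2 CPM) and COL1A1 (14.2 to 26.0 CPM) alone had a row. One column of the table gave no treatment in its name, only the control shRNA with replicate 1. It was taken as control drug replicate 1, the sample left over, and counts without it are given.

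The sequence at the transcription start is shown first for members that the results turn on, because the TOP tract is the element these mRNAs are known for. RefSeq start sites (GRCh38.p14) were available for 62 of the 79 members. Each window holds 15 bases before the start and 15 from it, 5' to 3' on the transcript strand, with a tract that begins at the start in capitals. A tract was defined as a C at the start followed by at least 4 bases that are C or T, read on the transcript strand alone. The first set holds members that rose in the knockdown in both treatments and have a tract.
RPL35A (chr3:197950175-197950204, plus strand): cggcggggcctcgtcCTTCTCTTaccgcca
RPL34 (chr4:108620561-108620590, plus strand): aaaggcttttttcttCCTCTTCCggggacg
RPL7A (chr9:133348203-133348232, plus strand): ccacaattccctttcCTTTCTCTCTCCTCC
RPL38 (chr17:74203663-74203692, plus strand): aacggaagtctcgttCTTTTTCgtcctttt
RPL41 (chr12:56116618-56116647, plus strand): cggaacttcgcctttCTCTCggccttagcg
RPL31 (chr2:101002274-101002303, plus strand): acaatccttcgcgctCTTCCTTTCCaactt
RPL12 (chr9:127451392-127451421, minus strand): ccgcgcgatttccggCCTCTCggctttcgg
RPS3A (chr4:151099613-151099642, plus strand): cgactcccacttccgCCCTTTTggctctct
The RPL7A tract runs past the end of the window shown, to 16 bases. The next set rose as well, and has no tract at the listed start.
RPL27 (chr17:42998404-42998433, plus strand): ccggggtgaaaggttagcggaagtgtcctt
RPL9 (chr4:39458908-39458937, minus strand): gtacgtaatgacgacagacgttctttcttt
RPS7 (chr2:3575245-3575274, plus strand): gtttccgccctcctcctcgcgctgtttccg
The members that fell in the knockdown under drug include 3 with a tract and 2 without.
RPL28 (chr19:55385917-55385946, plus strand): tcgcccctcgccttcCTCTTTCCgtctcag
RPL27A (chr11:8682777-8682806, plus strand): ttggcgaaggccttcCTTTTTCgtctgggc
RPL18 (chr19:48619164-48619193, minus strand): accccagcccgttctCTCTTTCCggacctg
RPS28 (chr19:8321481-8321510, plus strand): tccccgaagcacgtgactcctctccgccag
RPS26 (chr12:56041903-56041932, plus strand): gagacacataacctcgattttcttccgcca
The 3 stalk proteins, which passed the threshold in no comparison, have tracts as well.
RPLP0 (chr12:120201097-120201126, minus strand): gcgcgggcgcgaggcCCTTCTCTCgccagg
RPLP1 (chr15:69452803-69452832, plus strand): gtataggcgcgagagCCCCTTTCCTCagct
RPLP2 (chr11:809952-809981, plus strand): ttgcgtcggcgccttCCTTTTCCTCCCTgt
RPS27 has a tract, and the listed start of its paralog RPS27L has none.
RPS27 (chr1:153990747-153990776, plus strand): atttccgctttcgctCCTTTCCggcggtga
RPS27L (chr15:63157463-63157492, minus strand): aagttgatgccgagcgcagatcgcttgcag

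A tract began at 46 of 77 listed starts of members (59.74%) and at 1429 of 35116 listed starts of all genes (4.069%). Counted by gene, 46 of the 62 members with an entry (74.19%) had one at some listed start, against 1404 of 27305 genes (5.142%). Rises and falls in the knockdown occurred on both sides of this line. In DMSO, 13 of 46 members with a tract rose and 1 fell, and 3 of 16 without a tract rose. Under drug the counts were 15 higher and 3 lower of 46 with a tract, and 8 higher and 2 lower of 16 without. Of the 16 tested members with no entry, 3 rose in DMSO and 5 under drug, and 0 fell. Of all genes tested, 15.1% rose and 16.2% fell in DMSO, and 14.8% rose and 16.3% fell under drug. The difference between members with and without a tract was not tested. The median log2 fold change under drug was 0.06 with a tract and 0.13 without. A match describes these letters at the annotated start, not the start used in Z-138 cells.

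As a group, member rows took 13 to 15% of all counts, and their share was highest in the knockdown under drug. The control DMSO libraries had 13.6, 13.2 and 13.3% (mean 13.4% ± 0.193, SD, n = 3), and the knockdown DMSO libraries 14.2, 14.1 and 13.6% (14.0% ± 0.341). The control drug libraries had 13.1, 13.0 and 13.7% (13.3% ± 0.394), and the knockdown drug libraries 14.9, 14.5 and 14.7% (14.7% ± 0.215). Without the library assigned by elimination the control drug mean was still 13.3%. The knockdown libraries lay above all controls under drug, by 1.43 percentage points on average, and overlapped them in DMSO, with a difference of 0.58 points. The exact two-sided permutation p was 0.1 under drug and 0.2 in DMSO (0.2 and 0.267 adjusted over the 4 comparisons made), and 0.1 is the smallest that 3 against 3 libraries allow. In knockdown cells the share was also higher with drug than in DMSO, by 0.74 points and without overlap (exact permutation p = 0.1, adjusted 0.2). In control cells the drug difference was -0.11 points (exact permutation p = 0.7, adjusted 0.7). Rows of 18S and 28S ribosomal RNA moved with the groups in another order, taking 9.15% in control DMSO, 10.47% in knockdown DMSO, 10.6% in control drug and 8.36% in knockdown drug libraries. With those rows left out of the total, the knockdown differences were 1.20 points under drug and 0.86 points in DMSO. The drug difference in knockdown cells was then 0.45 points. Each of these 3 had an exact permutation p of 0.1 (adjusted 0.133). In bulk RNA, fewer cells with a given level and less RNA per cell cannot be told apart.

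**Figure D1:**
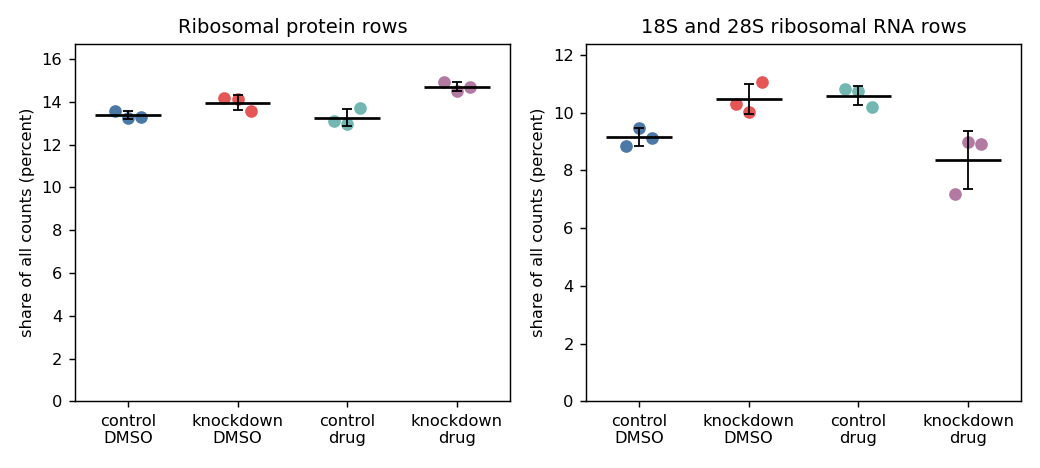
Share of all counts (percent) in the 79 ribosomal protein rows (left) and in the 18S and 28S ribosomal RNA rows (right), one point per library, with the mean as a line and 1 SD as bars (n = 3). Ribosomal protein shares average 14.7% in knockdown drug libraries and 13.3% in control drug libraries, while the ribosomal RNA share is lowest in the knockdown drug libraries at 8.36%.

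A subset of the ribosomal protein mRNAs was higher in knockdown libraries, by small amounts, and few were lower. In DMSO, 19 of 78 members rose (24.4%) and 1 fell (1.28%), where 15.1% of all 12602 genes rose and 16.2% fell (edgeR quasi-likelihood test, adjusted p under 0.05 over all genes). Under drug, 28 rose (35.9%) and 5 fell (6.41%), against 14.8% and 16.3% of all genes. The median log2 fold change of members was 0.06 in DMSO and 0.09 under drug, beside 0.00 for all genes in both. No member changed by more than 1.24-fold upward in DMSO or 1.28-fold under drug.

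Large subunit members made up most of the rises, and also most of the 78 members tested. Of the 46 tested, 13 rose (28.3%) and 1 fell in DMSO, and 20 rose (43.5%) and 3 fell under drug. Of the 32 small subunit members, 6 rose (18.8%) and 0 fell in DMSO, and 8 rose (25%) and 2 fell under drug. Beside these, 15.1% of all genes rose in DMSO and 14.8% under drug, and 16.2% and 16.3% fell. The difference between the subunits was not tested.

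These counts depended on single libraries. In DMSO, 11 members were called without control DMSO replicate 2 and 12 without knockdown DMSO replicate 1. Under drug, 17 rises were called without control drug replicate 2 in place of 28. Without the library assigned by elimination, 14 rose and 1 fell in DMSO, and 20 rose and 4 fell under drug. When each member was instead measured against the sum of all member counts, 12 rose and 7 fell in DMSO, and 15 rose and 13 fell under drug. With library totals in place of scaling factors, 45 rose and 2 fell under drug, and 39 rose and 2 fell when the ribosomal RNA rows were left out as well. The shares of all genes called in these alternatives are not given here, so such shifts are not read as particular to the members.

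**Figure D2:**
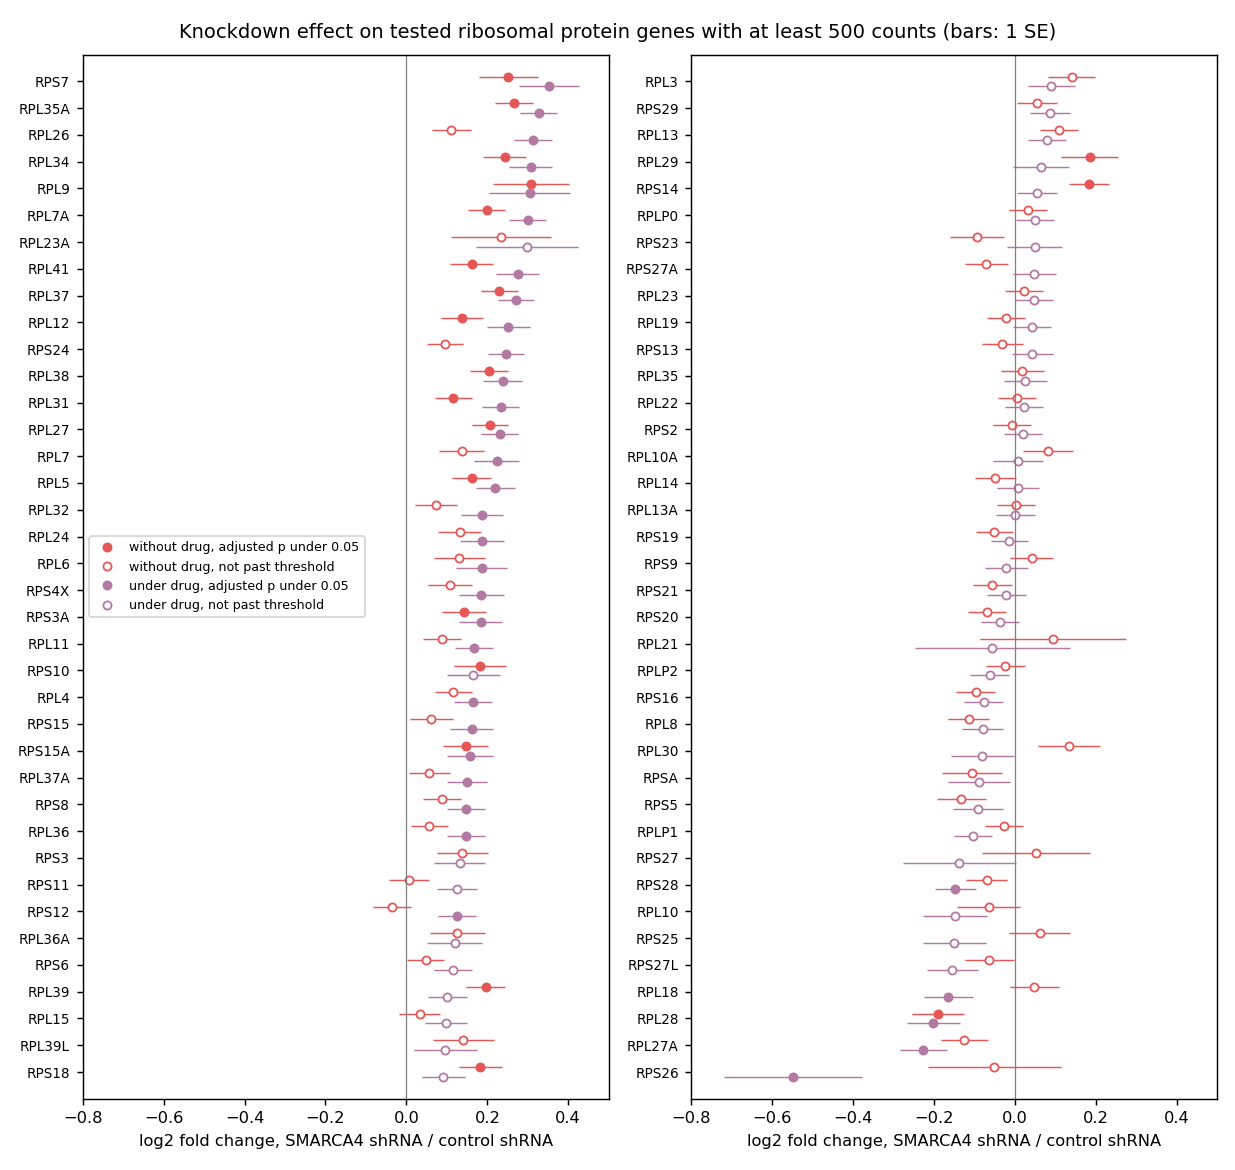
Log2 fold change of SMARCA4 shRNA over control shRNA for the 76 of 78 tested members with at least 500 counts over the 12 libraries, ordered by the value under drug (left panel, upper part of the order; right panel, lower part), without drug in red and under drug in purple. Bars are 1 SE and filled points have an adjusted p under 0.05; most filled points lie to the right of 0, from 0.12 to 0.35, and RPS26 lies farthest to the left at -0.55.

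Both knockdown comparisons, which share no library, placed the members in a similar order. Across the 78 members the log2 fold changes correlated with Pearson's r = 0.742 and Spearman's rho = 0.782, and 65 had the same sign. The same Pearson's r over all 12602 genes was 0.861. Genes are not independent replicates, and both comparisons come from 1 fit. Rises passed the threshold in both treatments for 14 members, 11 of the large subunit (RPL5, RPL7A, RPL9, RPL12, RPL27, RPL31, RPL34, RPL35A, RPL37, RPL38 and RPL41) and 3 of the small (RPS3A, RPS7 and RPS15A). How many of all genes rose in both was not counted, so the overlap of 14 is not read as particular to the members. The DMSO calls of RPS3A and RPS15A held in 15 and 13 of 25 alternatives, and their calls under drug in 21 and 20. Measured against the sum of all member counts, both were lost in either treatment. RPL28 fell in both treatments. RPL29, RPL39, RPS10, RPS14 and RPS18 passed the threshold as rises in DMSO and not under drug, and 14 other members did so under drug and not in DMSO. For none of these members did the difference between the treatments pass the interaction test.

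RPL35A, a large subunit protein whose loss causes Diamond-Blackfan anaemia, had the smallest adjusted p of all members in both comparisons. Its level was 1175, 1152 and 1179 CPM in control DMSO libraries and 1418, 1404 and 1392 with the knockdown. Under drug it was 1207, 1147 and 1255 in control and 1517, 1463 and 1546 in knockdown libraries. Every knockdown library lay above every control library. The rise was 0.27 on the log2 scale in DMSO (SE 0.05, 1.20-fold, adjusted p = 3.91e-05) and 0.33 under drug (SE 0.05, 1.25-fold, adjusted p = 1.79e-06).

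RPL7A, an RNA-binding protein of the large subunit whose gene carries snoRNAs in its introns, showed the same order of groups. It was counted at 1561, 1528 and 1523 CPM in control DMSO and 1746, 1783 and 1764 in knockdown DMSO libraries. Control drug libraries had 1549, 1507 and 1628 CPM and knockdown drug libraries 1973, 1895 and 1901. The shRNA groups were separate in either treatment. The log2 fold changes were 0.20 (SE 0.05, adjusted p = 0.000974) and 0.30 (SE 0.05, adjusted p = 4.94e-06).

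RPL37, another large subunit snoRNA host, had 1225, 1208 and 1261 CPM in control DMSO and 1454, 1421 and 1456 with the knockdown. Under drug it had 1308, 1284 and 1313 in control and 1571, 1526 and 1615 in knockdown libraries, again with no overlap. It rose by 0.23 (SE 0.05, adjusted p = 0.000166) and 0.27 (SE 0.05, adjusted p = 2.0e-05) on the log2 scale. RPL34 rose by 0.24 (SE 0.05) and 0.31 (SE 0.05), from 475, 520.5 and 544 to 599, 592 and 629 CPM in DMSO. RPL38, a large subunit protein known for its part in translating Hox mRNAs in mouse embryos, rose by 0.20 and 0.24. RPL27 rose by 0.21 and 0.23. RPL9, at a low level of 36.3 to 59.7 CPM over the 12 libraries, rose by 0.31 (SE 0.09, adjusted p = 0.0119) and 0.30 (SE 0.10, adjusted p = 0.0194). Its groups overlapped under drug, where the call was lost without the library assigned by elimination or without knockdown drug replicate 2. Against the sum of all member counts the drug call was lost too (adjusted p = 0.0858). In DMSO it was lost without control DMSO replicate 2 or knockdown DMSO replicate 3.

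RPL41, the shortest ribosomal protein, had 2671, 2601 and 2702 CPM in control DMSO libraries against 3113, 3011 and 2793 in knockdown DMSO libraries. Under drug the levels were 2766, 2544 and 2819 and 3336, 3047 and 3455. The rise was 0.16 in DMSO (SE 0.05, adjusted p = 0.0189) and 0.28 under drug (SE 0.05, adjusted p = 0.000133). The DMSO call did not hold without control DMSO replicate 2, knockdown DMSO replicate 1 or knockdown DMSO replicate 2, where the adjusted p ranged from 0.0643 to 0.119. RPL31, a protein at the exit of the peptide tunnel, rose by 0.12 in DMSO (adjusted p = 0.0495) and 0.23 under drug (adjusted p = 0.000157). Its DMSO call was lost in 12 of 25 alternatives, the library assigned by elimination left out among them. RPL39, which lines that tunnel, rose by 0.20 in DMSO (adjusted p = 0.00198) and had 0.10 under drug (adjusted p = 0.116).

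**Figure D3:**
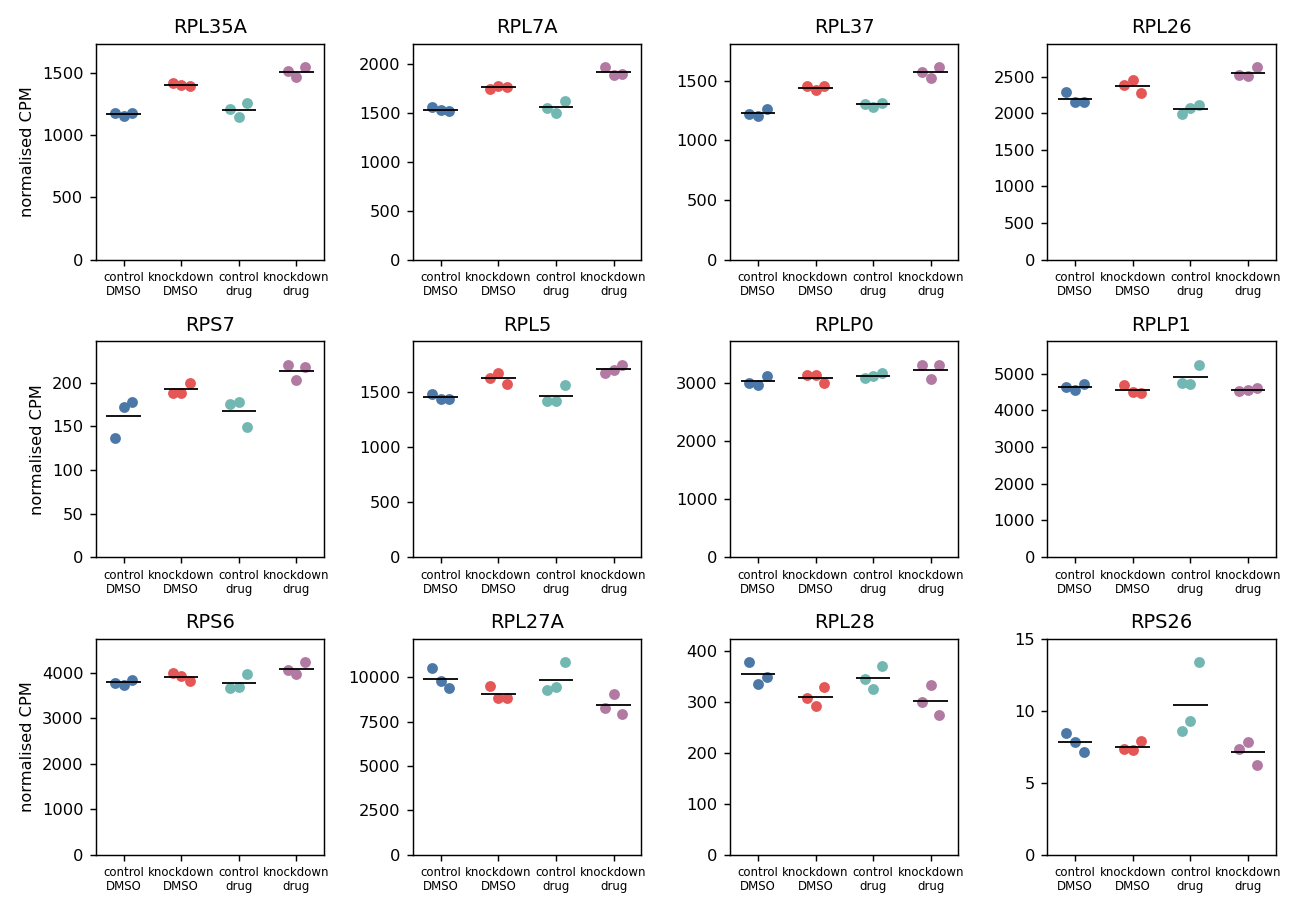
Normalised CPM (linear axis from 0) of 12 members in each of the 12 libraries, points by group with the group mean as a line. RPL35A, RPL7A and RPL37 lie higher in knockdown than in control libraries in both treatments, RPLP0 overlaps between all groups, and the control drug value of RPS26 rests on 1 library at 13.4 CPM.

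The proteins of the 5S particle, RPL5 and RPL11, join 5S ribosomal RNA before it enters the large subunit. RPL5 was counted at 1483, 1434 and 1434 CPM in control DMSO and 1625, 1674 and 1568 in knockdown DMSO libraries, and at 1416, 1416 and 1561 and 1668, 1701 and 1746 under drug. It rose by 0.16 in DMSO (SE 0.05, adjusted p = 0.0103) and 0.22 under drug (SE 0.05, adjusted p = 0.000682), with no overlap in either. The DMSO call was lost without knockdown DMSO replicate 2 (adjusted p = 0.0635). RPL11 had 1530.1, 1554 and 1635 CPM in control DMSO and 1705, 1658 and 1656 in knockdown DMSO libraries, a log2 difference of 0.09 (SE 0.05, adjusted p = 0.16). Under drug RPL11 rose by 0.17 (SE 0.05, adjusted p = 0.00629), from 1578, 1560.2 and 1668 to 1826, 1736 and 1836 CPM. Measured against the sum of all member counts, that rise was 0.10 and did not pass (adjusted p = 0.0704).

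The P stalk recruits translation factors to the large subunit and consists of RPLP0 with copies of RPLP1 and RPLP2, on a base that includes RPL12. RPLP0 was counted at 2997, 2970.0 and 3113 CPM in control DMSO and 3138, 3138 and 3005 in knockdown DMSO libraries, and at 3083, 3114 and 3179 and 3313, 3065 and 3318 under drug, so its groups overlapped throughout. The log2 differences were 0.03 (95% interval -0.08 to 0.14) in DMSO and 0.05 (-0.06 to 0.16) under drug. RPLP1 had -0.03 (-0.14 to 0.08) and -0.10 (-0.21 to 0.00), and RPLP2 -0.02 (-0.13 to 0.09) and -0.06 (-0.17 to 0.05). None of the 3 passed the threshold, though against the member sum RPLP1 and RPLP2 fell under drug (adjusted p = 0.000869 and 0.0133). Under drug RPLP0 also passed with library totals (0.13, adjusted p = 0.0255), and RPLP1 with limma-voom (-0.10, adjusted p = 0.0386). RPL12 differed from them in its calls. It had 763, 689 and 671 CPM in control DMSO and 809, 757 and 771 in knockdown DMSO libraries, which overlap, and rose by 0.14 (SE 0.05, adjusted p = 0.0448). Under drug it rose by 0.25 (SE 0.05, adjusted p = 0.000359), from 672, 686 and 733 to 829, 852 and 810.0 CPM. The DMSO call of RPL12 was lost without any 1 of 7 libraries, with adjusted p of 0.0513 to 0.187. Against the member sum that call was lost as well (adjusted p = 0.1185).

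RPL26, a large subunit protein that also binds p53 mRNA, had 2289, 2146 and 2146 CPM in control DMSO and 2382, 2451 and 2276 with the knockdown, which overlap. Under drug it had 1988, 2070.5 and 2108 in control and 2519.8, 2510.4 and 2629 in knockdown libraries. The log2 difference in DMSO was 0.11 (SE 0.05, adjusted p = 0.0742), and under drug RPL26 rose by 0.31 (SE 0.05, adjusted p = 4.58e-06). The interaction of 0.20 (SE 0.07) had the smallest unadjusted p of all members, 0.00517, with an adjusted p of 0.703.

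Among small subunit members, RPS7 had the largest rise under drug. It was counted at 137, 172 and 178 CPM in control DMSO and 189, 188 and 200.3 in knockdown DMSO libraries, and at 175, 178 and 149 and 221, 203 and 218 under drug. The log2 fold changes were 0.25 (SE 0.07, adjusted p = 0.00822) and 0.35 (SE 0.07, adjusted p = 0.000391), and control DMSO replicate 1 was the lowest of all libraries. Without it the DMSO call was lost (adjusted p = 0.107), as it was against the member sum (adjusted p = 0.0669). RPS24 rose by 0.25 under drug (SE 0.04, adjusted p = 5.6e-05), from 3694, 3779 and 3831 to 4535, 4430.0 and 4437 CPM. RPS14, whose loss marks the 5q- syndrome, rose in DMSO by 0.18 (SE 0.05, adjusted p = 0.00442), from 6064, 5698 and 5707 to 6934, 6673 and 6216 CPM. Under drug its value was 0.05 (adjusted p = 0.436).

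RPS6, the substrate of the S6 kinases, had 3777, 3739 and 3848 CPM in control DMSO and 3998, 3927 and 3818 in knockdown DMSO libraries, a log2 difference of 0.05 (SE 0.05, adjusted p = 0.481). Under drug it had 3670.0, 3679 and 3969 and 4053, 3975 and 4237 CPM, a difference of 0.12 (SE 0.05, adjusted p = 0.0574) whose groups did not overlap. It passed the threshold under 11 of the alternatives, among them the DESeq2 Wald test (adjusted p = 0.0384) and limma-voom (adjusted p = 0.0168).

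Falls were few, and each call was lost without at least 1 of the libraries, for most without any of several. RPL28 was at 378, 335 and 349.6 CPM in control DMSO and 307, 292 and 330.2 in knockdown DMSO libraries, and at 346, 325 and 371 and 301, 333 and 274 under drug. It fell by 0.19 in DMSO (SE 0.06, adjusted p = 0.0218) and by 0.20 under drug (SE 0.07, adjusted p = 0.0173). The DMSO call was lost without control DMSO replicate 1, knockdown DMSO replicate 1 or knockdown DMSO replicate 2, with adjusted p of 0.0654 to 0.197. RPL27A, the member with the most counts, had 9269.6, 9449 and 10857 CPM in control drug and 8268, 9069.5 and 7936 in knockdown drug libraries and fell by 0.23 (SE 0.06, adjusted p = 0.00292). Without control drug replicate 3 the adjusted p of that fall was 0.054. In DMSO its difference was -0.13 (adjusted p = 0.103). RPL18 fell by 0.16 under drug (SE 0.06, adjusted p = 0.0374) and RPS28 by 0.15 (SE 0.05, adjusted p = 0.026). The RPS28 call was lost without the library assigned by elimination (adjusted p = 0.0604), control drug replicate 3, or knockdown drug replicate 1 or 2 (up to 0.152). The RPL18 call was lost without control DMSO replicate 3, control drug replicate 3, or knockdown drug replicate 1 or 2 (up to 0.266), and with DESeq2 (0.0566). The call of RPL28 under drug was lost without control drug replicate 3, or knockdown drug replicate 1 or 3 (up to 0.148). Library totals in place of scaling factors also ended the calls of RPL18, RPL28 and RPS28 under drug. The RPL18 and RPL28 groups overlapped under drug.

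RPS26, a small subunit protein mutated in Diamond-Blackfan anaemia, had the largest fall and few counts. It had 8.63, 9.30 and 13.4 CPM in control drug and 7.35, 7.88 and 6.25 in knockdown drug libraries, where the third control library stood apart. The fall was 0.55 on the log2 scale (SE 0.17, adjusted p = 0.0137). Without control drug replicate 3 it was -0.32 (adjusted p = 0.198), and the call was also lost without knockdown drug replicate 3 (adjusted p = 0.0747). Leaving out control drug replicate 3 left 0 of the 5 falls under drug, and 32 members rose.

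A chosen list of 11 members mutated in Diamond-Blackfan anaemia, a congenital failure of red cell production, was not checked for completeness. In DMSO, 4 of the 11 rose (36.4%, beside 15.1% of all genes and 24.4% of all members). Under drug, 6 rose (54.5%, beside 14.8% and 35.9%) and 1 fell (RPS26). The median log2 fold change of the list was 0.10 and 0.20, and these values hold for the listed genes alone. Of 26 members with a row that host snoRNAs, 5 rose in DMSO (19.2%, beside 15.1% of all genes and 24.4% of all members), and 8 rose (30.8%, beside 14.8% and 35.9%) and 1 fell under drug, with medians of 0.08 in both. RPL17 of that list had no row.

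Paralogs gave little to call. RPS27L, a p53-induced paralog of RPS27, had 268, 246 and 241 CPM in control DMSO, 252, 241 and 231 in knockdown DMSO, 236, 219.9 and 239 in control drug and 195, 231 and 198 in knockdown drug libraries. Its knockdown differences were -0.06 (adjusted p = 0.469) and -0.15 (adjusted p = 0.0588). RPS27 itself had few counts, 18.1 to 29.96 CPM, and differences of 0.05 and -0.14 with SEs of 0.13 and 0.14. RPSA, the small subunit protein also known as a laminin receptor, had -0.11 (adjusted p = 0.297) and -0.09 (adjusted p = 0.412). Of 8 paralogs and fusion proteins, among them RPL22L1, RPL36AL, RPL39L, FAU and RACK1, 0 passed the threshold in any comparison. At an unadjusted p under 0.05 there were 1, 0, 0, 1 and 0, and the share of all genes at that cut is not given here. RPL39L is also a member by the naming pattern.

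Neither drug comparison called a member. In control cells 0 of 78 rose and 0 fell, where 0.738% of all genes rose and 0.555% fell. In knockdown cells the counts were again 0 and 0, against 0.738% and 0.548% of all genes. At an unadjusted p under 0.05 there were 3 members in control cells and 20 in knockdown cells, with lowest adjusted p of 0.356 and 0.0936 (edgeR). DESeq2 called 0 in both, and limma-voom 0 and 1. The 95% interval of the drug effect lay within 0.25 on the log2 scale on either side of 0 for 67 of 78 members in control cells and 59 in knockdown cells. The median effect was 0.01 and 0.04. The drug comparisons share their libraries with the knockdown comparisons.

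The lowest p under drug in knockdown cells belonged to RPS27L, with a log2 difference of -0.21 (SE 0.06, adjusted p = 0.0936). In control cells it was -0.12 (SE 0.06, adjusted p = 0.529). The drug and DMSO libraries of the same shRNA did not overlap for RPS27L in either case. Its drug effect in knockdown cells passed the threshold without knockdown drug replicate 2 (-0.29, adjusted p = 0.00831) and against the member sum (-0.25, adjusted p = 0.0315). RPS6 had -0.01 and 0.06, RPLP0 0.05 and 0.06, and RPL5 0.01 and 0.07. RPS26 had 0.41 in control cells (SE 0.17, adjusted p = 0.356).

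The interaction subtracts the drug effect of control cells from that of knockdown cells, and its test called 0 members in either direction. Of all genes 0.00794% were called higher and 0.0159% lower. At an unadjusted p under 0.05 there were 5 members, again without a share of all genes at that cut. The lowest adjusted p was 0.703, and DESeq2 and limma-voom called 0. The interval lay within 0.25 of 0 for 41 of 78 members.

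**Figure D4:**
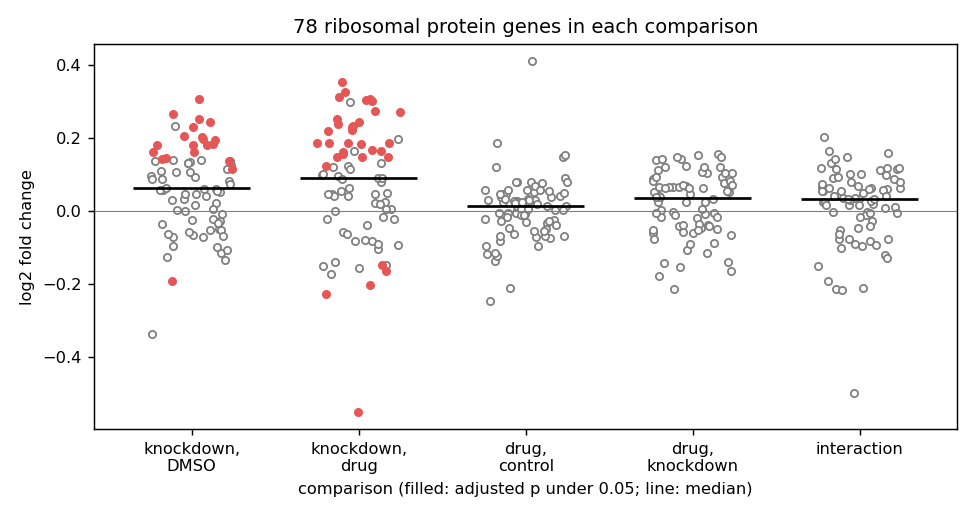
Log2 fold change of the 78 tested members in the 5 comparisons, one point per gene with random horizontal spread, filled where the adjusted p is under 0.05 and with the median as a line. Filled points appear in the knockdown comparisons alone, 20 in DMSO and 33 under drug, and the medians run from 0.01 to 0.09.

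The other mRNAs known to carry TOP tracts include elongation and initiation factors, and 16 of the 17 listed had a row. In DMSO 2 rose, EIF3E by 0.25 (SE 0.06, adjusted p = 0.000662) and NAP1L1 by 0.14 (SE 0.05, adjusted p = 0.0187), and NPM1 fell by 0.15 (SE 0.05, adjusted p = 0.0243). Under drug 5 rose and 1 fell, among them EIF3E by 0.29, EIF3L by 0.25 and the elongation factor EEF2 by 0.18. PABPC1, the poly(A)-binding protein, fell by 0.24. The DMSO call of NAP1L1 was lost without control DMSO replicate 1, control DMSO replicate 2 or knockdown DMSO replicate 3 (adjusted p of up to 0.0704). Against the member sum the DMSO call of NAP1L1 was lost as well. That of NPM1 was lost without control DMSO replicate 1 or 2 or any 1 knockdown DMSO library, with adjusted p of up to 0.235, and that of EEF2 under drug without control drug replicate 2 (0.0548). The shares that rose were 12.5% in DMSO and 31.2% under drug, beside 15.1% and 14.8% of all genes. In both drug comparisons 0 were called.

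Of 14 regulators of TOP mRNA translation, 2 rose and 4 fell in DMSO, and 2 rose and 3 fell under drug. The shares that fell were 28.6% and 21.4%, beside 16.2% and 16.3% of all genes, and 14.3% rose in either treatment, beside 15.1% and 14.8%. RHEB, the GTPase that activates mTOR, rose by 0.25 (SE 0.07, adjusted p = 0.00377) and 0.31 (SE 0.07, adjusted p = 0.000741). LARP1 fell by 0.18 in DMSO (SE 0.05, adjusted p = 0.00707), a call that was lost without control DMSO replicate 1 (adjusted p = 0.0964). The helicase EIF4A1 fell by 0.30 in DMSO, a call lost without control DMSO replicate 3 or knockdown DMSO replicate 1 (adjusted p of up to 0.115), and by 0.37 under drug, and it fell by 0.38 with drug in knockdown cells (SE 0.10, adjusted p = 0.0398). RPS6KB1, an S6 kinase, fell by 0.27 with drug in control cells (SE 0.07, adjusted p = 0.0448). Each of these drug effects was the 1 called gene of the list in its comparison. The call of EIF4A1 with drug was lost in 11 of 25 alternatives, with adjusted p of up to 0.461, and that of RPS6KB1 in 14 of 25, with adjusted p of up to 0.208, both including DESeq2.

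Of 14 chaperones and importers of single ribosomal proteins, 5 fell and 0 rose with the knockdown in DMSO, and 6 fell and 1 rose under drug. The shares that fell were 35.7% and 42.9%, beside 16.2% and 16.3% of all genes. GRWD1, a chaperone of RPL3, fell by 0.27 in DMSO (SE 0.06, adjusted p = 0.00168) and by 0.21 under drug (adjusted p = 0.0172), where the call was lost without knockdown drug replicate 1 or 2. TSR2, a chaperone of RPS26, fell by 0.26 (SE 0.07, adjusted p = 0.00672) and 0.31 (SE 0.08, adjusted p = 0.00226). RPS19BP1, which binds RPS19, fell by 0.24 and 0.33, and BCCIP, a chaperone of RPL23, fell by 0.32 under drug and had 0.02 in DMSO (adjusted p = 0.812). The DMSO call of TSR2 was lost without knockdown DMSO replicate 3 (adjusted p = 0.132), and that of RPS19BP1 without that library or control DMSO replicate 3 (up to 0.0641). RPS19 itself had -0.05 (adjusted p = 0.424) and -0.01 (adjusted p = 0.845).

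Copies of ribosomal protein genes limit what some rows measure. Human ribosomal protein genes have many processed pseudogenes, and GENCODE release 29 names 1107 after 75 of the 79 members, up to 91 for RPL23A. The table held 89 such pseudogene rows for 40 members, with 82922 counts in all against 16180272 for the members. For 2 members the pseudogene rows held more counts than the gene. RPL10 had 31870 counts over the 12 libraries and RPL10P3 42179, and RPSA had 8472 against 8773 in its pseudogene rows. RPL10P3 fell by 0.20 in the knockdown under drug (SE 0.06, adjusted p = 0.0101), where RPL10 had -0.15 (adjusted p = 0.162). That fall was lost without control drug replicate 3, without knockdown drug replicate 1 or with library totals (adjusted p of up to 0.117). Rows such as RPL21 (853 counts over the 12 libraries) and RPS26 (959) were low, and how reads shared with copies were counted is not given in the sources used here. Levels are therefore not compared between genes.

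GC content of an annotated transcript was weakly related to the knockdown effect. One transcript was taken per gene, and it need not be the form expressed in these cells. For some members it was long, such as 7686 bases for RPL37 and 7072 for RPL14, while the libraries read mRNA ends. Members that rose under drug had a median GC content of 47.6%, those that fell 53.8% and the rest 51.8%. Across 77 members, Spearman's rho between GC content and the log2 fold change was -0.258 in DMSO and -0.333 under drug, and across 10632 genes it was -0.083 and -0.104. With a correction for GC content within each library, an alternative chosen after seeing the data, 18 members rose and 1 fell in DMSO, and 29 rose and 5 fell under drug.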

How the data were processed

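Libraries were made with the Lexogen QuantSeq 3' kit, which reads mRNA ends, per the labels' protocols. Reads were handled with bcl2fastq 2.17.1.14, HISAT2 and HTSeq on hg19, per the submitters' processing notes, which were seen as names alone. For the annotation, strand setting and treatment of reads with several matches, settings were not given in the sources used here. One count table was deposited. In it the authors gave whole-number counts per gene, not normalized, for 12 libraries (7279503 to 22528537 in total).

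Genes were kept by filterByExpr (minimum count 10, minimum total 15), scaled with TMM factors (trimmed mean of M values) and fitted over all 12 libraries with 1 coefficient per group in edgeR 4.0.16 (R 4.3.3). The fit had 8 residual degrees of freedom, with a biological coefficient of variation of 5.69%. Two-sided quasi-likelihood tests were adjusted by Benjamini-Hochberg over 12602 genes, threshold 0.05. Tests were checked on simulated counts. SE is the log2 fold change over the root of its F statistic, and is approximate, and 95% intervals use 8 degrees of freedom. The tests also use prior degrees of freedom (median 22.46), so the intervals are wider than the p-values imply.

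Members and gene lists were chosen with earlier results of these data known. Named were the 8 called members with the smallest adjusted p in each direction (all where 12 or fewer were called), fixed members (RPL5, RPL11, RPS6, RPS27, RPS27L, RPL41, RPSA, the stalk proteins and RPL12), the highest and lowest, those failing the filter, and up to 4 genes per list. A few of these are not reported here. RPL9, RPS19, RPL10P3, RPL10, the low-count rows and the remaining members called in both treatments were named after their values were seen. Alternatives used other scalings and filters, DESeq2 1.42.0, limma-voom (limma 3.58.1), fits of the groups compared alone, the replicate number as a block and leaving out each library. Start windows and tracts came from RefSeq, GC content from GENCODE release 29 (both GRCh38), matched by symbol or identifier.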

Additional observations from a re-analysis of the deposited data

How the results depend on the processing

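No result reversed under any alternative run. Of the members called in the knockdown, 8 of 19 rises in DMSO and 14 of 28 under drug passed the threshold in all 25 alternatives, and 0 of the 1 and 5 falls did. Counts of called members in the knockdown in DMSO (20) became 32 with library totals and no ribosomal RNA rows (chosen after seeing the data) and 31 with the 2 groups fitted alone. Leaving out 1 library gave 11 to 26. Under drug (33) the range without 1 library was 23 to 37, and library totals gave 45 higher and 2 lower. For the drug effect in knockdown cells (0), library totals gave 2, the member sum 2, limma-voom 1 and GC correction 1, and leaving out 1 library 0 to 2. In control cells and for the interaction every alternative gave 0. These are counts of members, and the shares of all genes called in the same alternatives are not given here. The causes were not tested.

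Replicate numbers showed no uniform pairing over all groups, and the labels do not state what a replicate number means. Same-numbered libraries of different groups had correlations of their deviations from -0.314 to 0.227 (median -0.041, 18 pairs). Between control and knockdown the values were 0.0748, 0.0915 and 0.199 in DMSO, and 0.227, -0.0227 and 0.113 with drug. Pairing within a treatment is therefore not excluded. With the replicate block, 15 members were called in DMSO and 32 under drug, and 0 in the other comparisons.

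The share of counts in member rows was 14.7, 15.6, 14.8 and 16.0% without ribosomal RNA rows and 12.4, 13.0, 12.3 and 13.8% without RPL27A, for control DMSO, knockdown DMSO, control drug and knockdown drug. Depth limits rows with few counts, such as RPL21, where the SE of the knockdown effect was 0.18 in DMSO and 0.19 under drug.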
